A study of Mus musculus with 8 samples.

Results

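Transcript levels were described in the 4 libraries that carry the placebo label, out of 8 in the series. Each was made from ischemic tibialis anterior, a muscle at the front of the lower leg, of male Leprdb/db mice. These mice carry the db allele of the leptin receptor gene on both chromosomes, in every tissue, and become obese and diabetic. Surgery had cut off the blood supply of a hind limb (hind limb ischemia, HLI), and tissue was collected on day 28. Placebo meant control chow without praliciguat, offered from day -3 and kept up for 31 days. All 4 libraries share genotype, sex, surgery and diet, and no unoperated or lean muscle is among them, so levels are given as they stand after surgery. Whether the 4 libraries come from 4 mice is not spelled out in the labels, so the spread between libraries may be partly technical. Replicate numbers follow accession order and carry no meaning of their own.

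Skeletal muscle fibres fill their cytoplasm with a small set of contractile and energy-supplying proteins, and fast and slow fibres use different isoforms of the same parts. The tibialis anterior of the mouse is a predominantly fast muscle. After an ischemic injury, damaged fibres are cleared by macrophages and rebuilt from satellite cells, which pass through a stage with embryonic and neonatal isoforms, while fat cells and collagen can fill part of the space between fibres.

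Total expected counts, the reads assigned to genes by the counting model, were 21099764, 29635817, 27791709 and 28167928 in replicates 1 to 4. At these depths 3 counts equal 0.101 to 0.142 CPM (counts scaled to the library total, as TPM is, but not by length), the limit for a gene with 0 counts, for counting error only. Male tissue was evident in every library: Eif2s3y, a Y-linked gene, lay at 69.6 to 84.2 TPM and Xist, expressed from the inactive X chromosome of females, at 0.10 TPM or less. TPM is a level scaled by gene length and by the library total, so that genes can be set side by side. Lepr, the leptin receptor gene, was at 0.56, 0.12, 0.32 and 0.41 TPM, and this total does not separate its isoforms, so it says nothing about the db allele. Muscle markers were high in every library, with Des (desmin, the intermediate filament of muscle) at 2432 to 2565 TPM. Replicate 3 stood apart from the other 3 libraries. Pairs that included it had 214 to 235 genes at least 2-fold apart, against 61 to 100 for the other pairs, among 8496 genes. Those 8496 genes had a mean of at least 5 TPM and at least 100 expected counts, and every measure of spread per gene refers to them. No pair agreed within sampling noise, with chi-square per degree of freedom from 32.2 to 67.0.

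The transcript pool of this muscle was concentrated in contractile and glycolytic genes. Of 24848 genes in the tables, 11412 (45.9%) reached 1 TPM in every library, and 7297 had 0 counts in all 4. The 13 genes above 10000 TPM on average held 30.7% of all TPM, and another 89 genes from 1000 to 10000 TPM held 21%. In contrast, 5449 genes from 1 to 10 TPM held 2.4%. The 10 most abundant genes held 27.34%, 28.08%, 25.76% and 26.08% of TPM in replicates 1 to 4, a mean of 26.81% ± 1.08 (SD, n = 4). The 100 most abundant held 51.52% ± 1.39 (SD, n = 4). Between 74 genes in replicate 2 and 97 in replicate 3 made up 50% of TPM. Protein-coding genes gave 97.58% to 97.89% of TPM and long non-coding RNA 0.54% to 0.72%. Genes encoded in the mitochondrial genome were not analysed here, so these shares refer to nuclear genes.

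Acta1, skeletal muscle alpha-actin, was the most abundant transcript, at 45841, 47360, 46695 and 48167 TPM. Tnnt3, fast troponin T, followed at 41968, 40874, 38354 and 38825 TPM. Their levels overlapped with no other gene, and their coefficients of variation (CV, the SD as a percentage of the mean) were 2.10% and 4.26%. On RefSeq's GRCm38.p6 assembly, the assembly of mm10, Acta1 spans chr8:123891758-123894775 and Tnnt3 chr7:142498771-142516213.

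The sequences just upstream of the transcript starts are shown for 4 of the most abundant genes, because they differ in the elements they hold. Mean levels of the 4 genes ran from 25498 TPM in Ckm to 47016 TPM in Acta1. They are the 100 bases before the RefSeq start on GRCm38.p6, read 5′ to 3′ on the gene's own strand, at chr8:123894776-123894875 (minus strand) for Acta1, chr2:164779735-164779834 (minus) for Tnnc2, chr7:127211508-127211607 (plus) for Mylpf and chr7:19410994-19411093 (plus) for Ckm. Capitals mark a TATAA, the core of the TATA box, or a CArG box, the motif bound by serum response factor.
Acta1: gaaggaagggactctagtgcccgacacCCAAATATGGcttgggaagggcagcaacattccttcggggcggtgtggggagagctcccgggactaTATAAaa
Tnnc2: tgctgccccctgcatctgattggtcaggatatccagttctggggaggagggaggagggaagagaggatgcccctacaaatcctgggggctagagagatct
Mylpf: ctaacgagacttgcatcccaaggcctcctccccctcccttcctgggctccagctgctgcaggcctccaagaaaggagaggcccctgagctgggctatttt
Ckm: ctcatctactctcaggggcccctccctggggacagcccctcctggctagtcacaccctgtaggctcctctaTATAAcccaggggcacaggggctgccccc

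Acta1 held both elements close to its start, and Ckm held the TATAA alone. Neither was found in Tnnc2 or Mylpf, on either strand of the 250 bases upstream. Over the 104 RefSeq promoters of 77 of the 100 most abundant genes, 14.4% held a TATAA and 4.8% a CArG box in 250 bases, against 20.1% and 1.4% of the 21699 promoters of all genes in the tables. Of the 11533 promoters of genes at 1 TPM or more in every library, 12.4% held a TATAA and 1.2% a CArG box. The shares of the abundant genes rest on 15 promoters with a TATAA and 5 with a CArG box. Their TATAA share was close to that of genes at 1 TPM or more, so no direction is read from it. The MEF2 motif, bound by a factor of muscle differentiation, was in 4.8% (5 promoters), against 1.6% for all genes and 1.3% for genes at 1 TPM or more. The E box CANNTG, a motif of myogenic factors that also occurs by base composition, was in 72.1%, against 63.1% and 57.4%. Both strands were searched, and a TATAA can overlap a MEF2 motif. Matches of this kind describe letters in a window and say nothing of binding.

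Fast fibre parts dominated the top of the ranking. Of the 30 most abundant genes, 10 belonged to the list of thin and thick filament genes and 15 to the list of fast fibre genes. Tnnc2 (fast troponin C) was at 28431, 28807, 25006 and 24776 TPM. Mylpf, the fast regulatory light chain of myosin, was at 26244, 29641, 28554 and 22189 TPM. Tnni2 (fast troponin I) was at 23717, 21834, 19241 and 20161 TPM. Tnnc2 and Mylpf overlapped in level, so their order is not fixed by these libraries, whereas Tnni2 was the lowest of the 3 in every library. Atp2a1, the calcium pump of fast fibres, was at 19190, 21345, 20021 and 23487 TPM. Pvalb, the calcium buffer parvalbumin, was at 18922, 17698, 14566 and 14476 TPM, with replicates 1 and 2 above replicates 3 and 4. The 26 thin and thick filament genes together held 22.66% of TPM (CV of the sum 3.4%), and the 18 fast fibre genes, many of them the same, 21.2% (CV 5.0%).

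**Figure D1:**
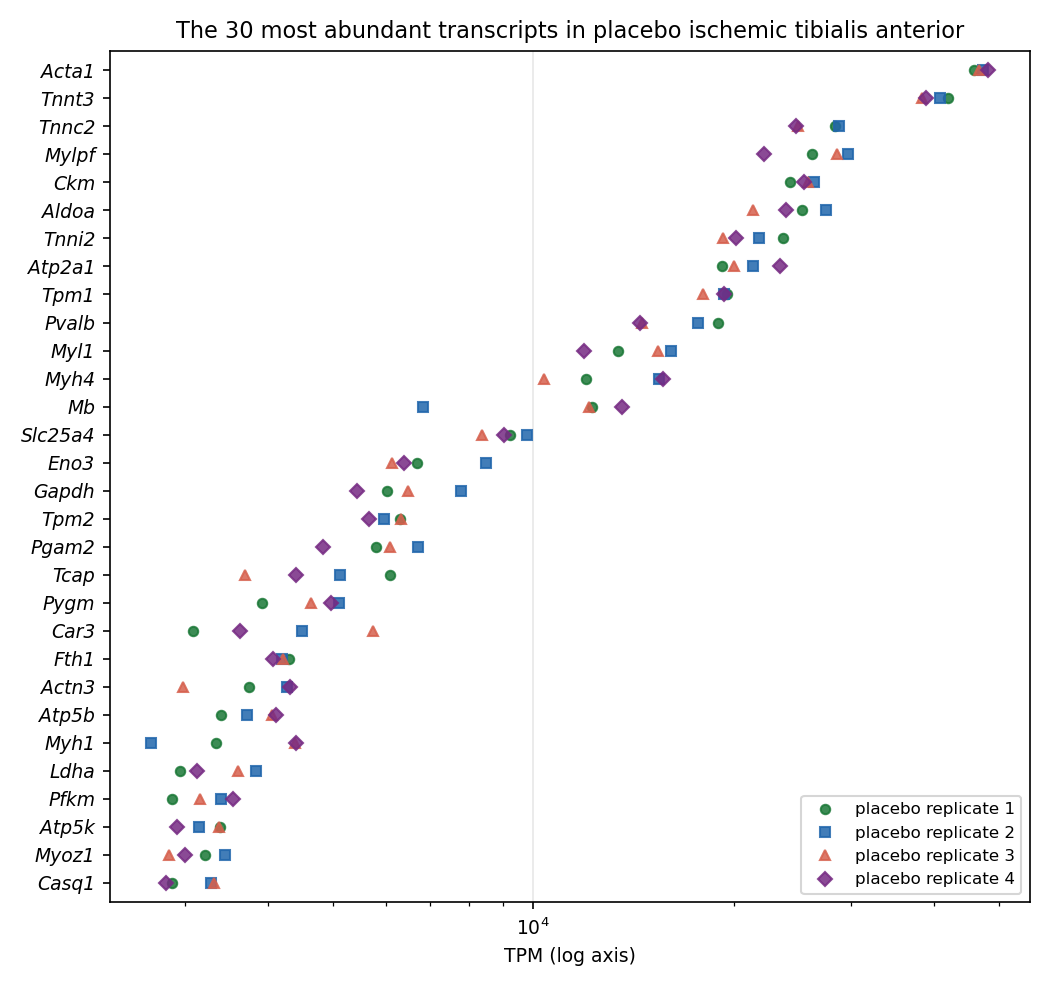
TPM (log axis) of the 30 genes of highest mean level, 1 point per placebo library and 1 row per gene. Acta1 and Tnnt3 lie to the right of all other genes in every library, and Mb is the row in which 1 library (replicate 2, 6822 TPM) lies far to the left of the others.

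Myosin heavy chain, the motor of the thick filament, was mainly of the fastest type. Myh4 (type 2B) was at 12011, 15465, 10375 and 15633 TPM, and its share of the 4 adult chains was 73.9%, 82.2%, 65.6% and 73.2%. Myh1 (type 2X) took 20.6%, 14.2%, 27.7% and 20.6%. Replicate 3 thus had the lowest share of Myh4 and the highest of Myh1, and replicate 2 the reverse. Myh2 (type 2A) took 3.10% to 6.42%. Myh7, the slow chain, took 0.768%, 0.521%, 0.222% and 0.725%. These chains are closely related genes, and the division of shared reads between them rests on the counting model.

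Length scaling changes which genes lead. By CPM, Myh4 ranked 1 at 44266 ± 8141 CPM (SD, n = 4), Atp2a1 2 at 38699 ± 2164 CPM and Acta1 3 at 34633 ± 1035 CPM. Ttn, the giant spring protein titin, ranked 9 by CPM and 511 by TPM, at 225, 232, 211 and 254 TPM. It was picked out after its values were seen. The 10 genes leading by CPM held 21.7% of counts, below the 26.81% of TPM.

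Energy metabolism formed the next block. Ckm, muscle creatine kinase, which buffers ATP, was at 24283, 26350, 25849 and 25507 TPM (CV 3.45%). Aldoa, the aldolase of muscle glycolysis, was at 25283, 27548, 21345 and 23923 TPM. The 20 glycolysis genes summed to 56459, 66592, 54881 and 54541 TPM, with replicate 2 above the other 3 libraries. Gapdh, often used as a reference gene, was likewise highest in replicate 2, at 6038, 7798, 6473 and 5441 TPM. Muscle isoforms exceeded their counterparts by margins that differed between enzymes. Pgam2 was 1601-fold ± 281 (SD, n = 4) above Pgam1, Hk2 20.4-fold ± 5.35 above Hk1 and Ldha 9.35-fold ± 2.91 above Ldhb. Eno3 was 1295-fold ± 589 above Eno1, whose expected counts are not whole and therefore depend on how shared reads were divided. Eno1 was picked out after its values were seen. The 12 glycogen genes, led by Pygm (muscle glycogen phosphorylase, 4658 TPM on average), summed to 6765, 8415, 8341 and 8992 TPM.

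The sum of the oxidative phosphorylation genes varied least of the 40 list sums. These 41 nuclear genes summed to 55706, 53985, 53979 and 53426 TPM, a CV of 1.8%. The median CV of their members was 7.3%, against 6.7% for the proteasome list and 11.64% over all 8496 genes. Atp5b, the catalytic beta subunit of ATP synthase, was at 3396, 3716, 4055 and 4106 TPM. Ndufs1, a subunit of complex I, was the member of highest CV (20.24%) at 313, 366, 494 and 456 TPM. The sum was therefore steadier than single members, some of which were higher in replicates 3 and 4. Citric acid cycle genes summed to 12374, 13620, 15168 and 14523 TPM, and 14 of the 19 were highest in replicate 3, against 34.7% of all 8496 genes. Pdk4, which shuts glucose-derived carbon out of the cycle, was at 1037, 1405, 865 and 988 TPM.

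Myoglobin departed from this pattern. Mb, the oxygen store of muscle, was at 12264, 6822, 12121 and 13605 TPM, a CV of 26.75%, with replicate 2 well below the other libraries. Replicate 2 also had the lowest summed globin level: 6 globin genes of red blood cells totalled 1623, 855, 2239 and 1926 TPM. Hbb-bs and Hbb-b1 are near-identical beta globins whose separate values are uncertain, so the total is the firmer number. Car3, the carbonic anhydrase abundant in slow fibres and fat, was at 3078, 4490, 5751 and 3626 TPM (CV 27.5%), the highest CV of the 30 leading genes, which ranged from 2.10% to 27.5%. Whether blood content had a part in the Mb values was not tested.

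Fatty acid genes were abundant and modest in spread. The 26 genes of fatty acid uptake and oxidation summed to 11904, 12158, 13805 and 12017 TPM, highest in replicate 3. Fabp3, the fatty acid binding protein of muscle, was at 2257, 2318, 1943 and 1938 TPM. Fabp4, its counterpart in fat cells and capillary endothelium, was at 1955, 1861, 2867 and 1285 TPM, highest in replicate 3. Acadl, which oxidises long-chain fatty acids, was at 723, 854, 885 and 832 TPM.

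Spread declined little with level. The median CV was 13.7% for 1963 genes of 5 to 10 TPM, 11.3% for 5394 genes of 10 to 100 TPM, 10.0% for 1037 genes of 100 to 1000 TPM and 9.2% for the 102 genes above that. Counting error alone would give a median CV of 3.48%. The quartiles of the CV were 7.68% and 16.86%, and 775 genes had a CV below 5%. edgeR's common biological coefficient of variation, the spread beyond counting error, was 17.93%, and 15.57% without replicate 3. It was estimated on the 12947 genes kept by edgeR's count filter (13078 without replicate 3), not on the 8496 genes. With 4 libraries an SD is loosely known: its 95% interval runs from 0.566 to 3.73 times the estimate.

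Genes of lowest CV had varied roles. Psma2, a proteasome subunit, was at 181, 182, 181 and 181 TPM (CV 0.34%). Ndufs3, of complex I, was at 537, 533, 536 and 538 TPM, and Sirt3, the mitochondrial deacetylase, at 33.7, 34.2, 33.9 and 34.4 TPM. Aspscr1, Btbd2, Atn1, Fam76b, Cmc1, Rexo1, Pex10, Dlgap4, BC024978, Creb3, Angel1 and Mrpl19 complete the 15 lowest, with CVs up to 1.16%. All 15 lay below the CV that counting error alone gives them, 1.28% to 6.39%. They are thus the low tail of 8496 estimates from 4 libraries, 406 (4.8%) of which were below counting error, and not genes shown to be constant. Proteasome genes were steady as a list, with a median CV of 6.7% over 24 members.

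A CV above 50% was found for 142 genes, 1.67% of the 8496. Replicate 3 was the highest library in 112 of them (78.9%), against 34.7% of all 8496 genes. Without replicate 3, 54 of 8398 genes had a CV above 50%. The replicate 3 level was at least 2-fold above each other library for 89 genes, 1.05% of the 8496. The same rule gave 2 genes for replicate 1, 1 for replicate 2 and 4 for replicate 4. Of the 15 genes of highest CV, 14 were highest in replicate 3.

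**Figure D2:**
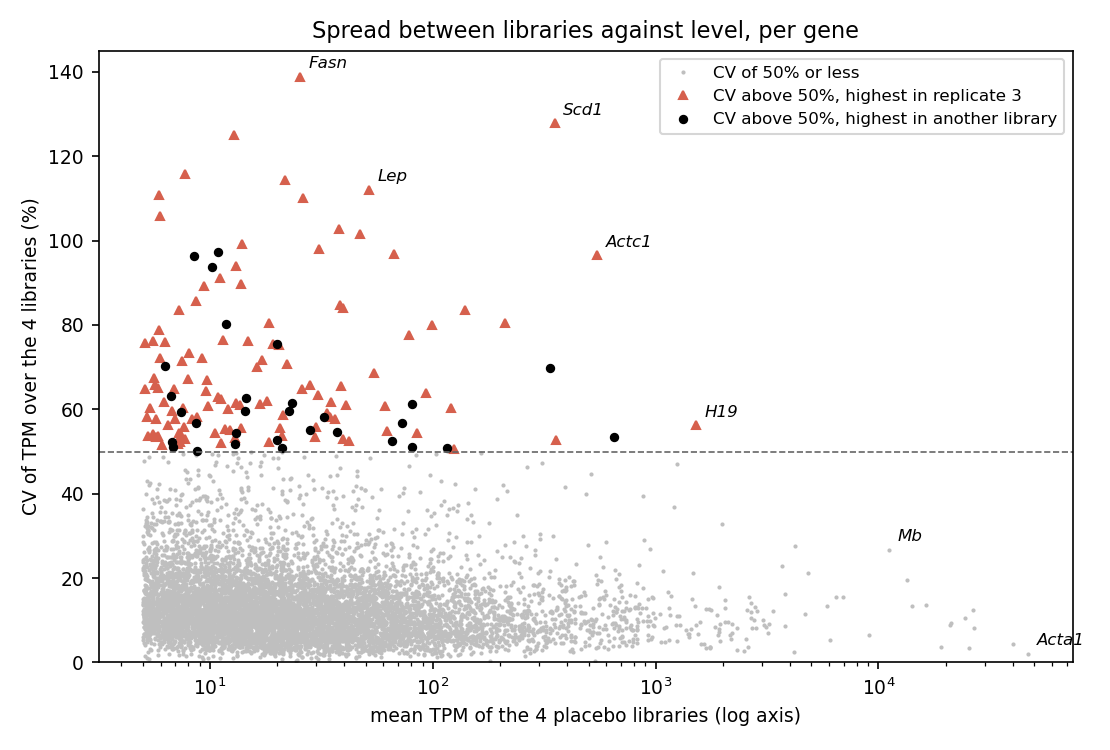
CV of TPM over the 4 placebo libraries (percent) against mean TPM (log axis) for 8496 genes, 1 point per gene. The dashed line is at 50%. Above it lie 142 genes, of which 112 (red triangles) were highest in replicate 3, Fasn and Scd1 at the top, while Acta1 lies near 0 at the far right.

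Fasn and Scd1, both of fatty acid synthesis, were the genes of highest CV. Fasn, the fatty acid synthase, was at 7.60, 4.59, 77.8 and 11.2 TPM, 10.0-fold higher in replicate 3 than the mean of the other 3 libraries (CV 138.9%). It lies at chr11:120805958-120825166 and was covered by 769 to 11813 expected counts. Scd1, which desaturates stearate, was at 119, 111, 1030 and 154 TPM, 8.06-fold higher in replicate 3. Slc25a1, the citrate carrier that exports carbon for this synthesis, was at 10.3, 6.36, 58.8 and 11.3 TPM. In these 3 genes replicate 3 lay far above the range of the other libraries. Acly, which splits the exported citrate, was at 12.6, 9.40, 40.8 and 14.1 TPM. Acaca, the acetyl-CoA carboxylase of fat and liver, was at 1.96, 1.82, 5.43 and 2.07 TPM, and Elovl6, which elongates palmitate, at 0.90, 0.42, 4.93 and 0.87 TPM; both were under the 5 TPM minimum. Srebf1, the gene of a transcription factor that drives lipid synthesis, did not share the pattern, at 14.0, 10.5, 17.3 and 18.3 TPM. Acly, Acaca, Elovl6 and Srebf1 were picked out after their values were seen.

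The fat cell hormone genes Lep and Adipoq were highest in the same library. Lep, which encodes leptin, the ligand of the mutated receptor, was at 25.6, 13.6, 138 and 29.4 TPM. Adipoq, which encodes adiponectin, was at 85.3, 87.1, 315 and 72.8 TPM. Plin1 and Cidec coat and enlarge the lipid droplet of fat cells. Plin1 was at 14.1, 17.3, 76.0 and 15.7 TPM and Cidec at 38.6, 27.5, 164 and 37.7 TPM. Plin4, which muscle fibres also express, was flat at 184, 190, 208 and 183 TPM. Pparg, the transcription factor gene of fat cell differentiation, picked out after its values were seen, was at 11.2, 9.20, 25.2 and 9.56 TPM.

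The 13 fat cell markers summed to 2469, 2465, 4125 and 1757 TPM. Fabp4, also a gene of capillary endothelium, made up most of this sum in each library, at 1955, 1861, 2867 and 1285 TPM. Ucp1, the marker of brown fat, was at 0.3 TPM or less. Of the 11 markers that passed both minimums, 7 had a CV above 50% and 9 were highest in replicate 3. The shares over all 8496 genes were 1.67% and 34.7%. Cfd, at 68.0, 136, 134 and 52.7 TPM, and Pck1, at 15.6, 35.8, 31.9 and 7.26 TPM, were highest in replicate 2 instead. Without replicate 3, 2 of 10 had a CV above 50%. In bulk tissue, more fat cells and more RNA per fat cell cannot be told apart. Adipoq, Plin1 and Lep were above 10 TPM in each library, so fat cell transcripts were present in every sample. Cdo1, Ptger3, Mrap and Orm1, none of them on the fat cell list, were also among the 15 genes of highest CV. They were 5.13-fold, 5.96-fold, 4.89-fold and 7.62-fold higher in replicate 3 than the mean of the others.

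Macrophage and antigen presentation genes were highest in the same library. C1qa, a chain of complement C1q made by tissue macrophages, was at 37.1, 27.7, 74.9 and 29.1 TPM. Lyz2, the lysozyme of macrophages and neutrophils, was at 112, 72.7, 215 and 96.8 TPM. The 21 macrophage and monocyte markers summed to 335, 212, 621 and 272 TPM. Of the 11 that passed both minimums, 10 were highest in replicate 3 and 9 had a CV above 50%, against 34.7% and 1.67% of all 8496 genes. Without replicate 3, 2 of 9 had a CV above 50%. Cd74, the invariant chain of MHC class II, was at 72.4, 108, 226 and 74.8 TPM, and H2-Aa, a class II alpha chain, at 37.9, 55.5, 115 and 35.6 TPM. All 4 class II genes that passed had a CV above 50%, against 1.67% of all 8496 genes, and 0 of 4 did without replicate 3.

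For some macrophage genes replicate 1 was high as well as replicate 3. Gpnmb, found in lipid-laden macrophages, was at 10.9, 2.16, 13.9 and 4.99 TPM, and Mmp12, macrophage elastase, at 18.3, 0.54, 11.8 and 3.19 TPM, so that replicates 1 and 3 were high and replicate 2 low. Of these 2 genes, only Mmp12 was highest in replicate 1. Ccl8, a chemokine gene of resident macrophages, was highest in replicate 3, at 20.4, 5.56, 67.9 and 10.1 TPM. The lymphoid and neutrophil genes that could be read were low. Trac of the T and NK cell list, and Igkc and Ighm of the B and plasma cell list, were not among the 24848 genes, so their levels are unknown. The T and NK cell markers summed to 1.2 to 6.0 TPM, the B and plasma cell markers to 1.4 to 5.6 TPM and the neutrophil markers to 6.2 to 31.7 TPM, mainly S100a8 (4.1 to 16.1 TPM) and S100a9 (1.16 to 14.5 TPM), calcium-binding proteins of neutrophils and monocytes. Mpo and Elane, of neutrophil granules, had 0 counts in every library, and so had Krt1, a keratin of skin. Skin markers summed to 3.6 to 9.1 TPM.

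Collagen genes were moderately higher in replicate 3. Col3a1, of fibrillar collagen III, was at 123, 139, 287 and 112 TPM. Col1a1, of collagen I, was at 166, 119, 238 and 93.5 TPM, and Sparc, a collagen-binding matrix protein, at 462, 388, 766 and 329 TPM. Of 20 matrix genes that passed, 14 were highest in replicate 3, against 34.7% of all 8496 genes. Their median CV was 29.5%, and 14.0% without that library. Col4a1, of basement membrane, was at 118, 134, 224 and 115 TPM.

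Some genes of developing muscle were also highest in replicate 3. On the regeneration and satellite cell list, 6 of the 15 members that passed were highest in replicate 3, beside 34.7% of all genes, and 5 in replicate 1, beside 22.2%. Myog, the myogenin gene, which drives fusion and differentiation of myoblasts and responds to denervation, was at 5.15, 7.38, 19 and 5.16 TPM. Myh8, the neonatal myosin chain, was at 4.5, 6.35, 16.9 and 4.55 TPM. Myh3, the embryonic chain, had another order, at 17.1, 6.39, 11.3 and 10.3 TPM. Mybph, a myosin binding protein of immature fibres, was at 59.4, 83.8, 216 and 38.8 TPM. Chrna1, a subunit of the acetylcholine receptor, was at 7.82, 9.58, 18.9 and 5.98 TPM, and Chrng, its fetal subunit, at 0.14, 0.84, 3.58 and 0.34 TPM. H19, an imprinted long non-coding RNA of fetal muscle, was at 979, 1264, 2792 and 1050 TPM, which placed it at rank 76 of all genes. Mybph, Chrna1, Chrng and H19 were picked out after their values were seen. Pax7, the satellite cell marker, was at 0.70 to 1.08 TPM, and Myf6, a myogenic factor of mature fibres, at 123 to 160 TPM.

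Actc1 and Sln split the libraries 2 and 2. Actc1, the cardiac alpha-actin that is also the fetal form in skeletal muscle, was at 116, 881, 1115 and 78.1 TPM. Sln, sarcolipin, which slows the calcium pump, was at 13.1, 38.2, 93.2 and 7.73 TPM. In both genes replicates 2 and 3 lay above replicates 1 and 4 without overlap. Leaving out replicate 3 did not lower the CV of Actc1, which was 96.6% with all libraries and 126.3% without it. Acta1 exceeded Actc1 by 41.9-fold in replicate 3 and by 616-fold in replicate 4.

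Many slow fibre genes went the other way in replicate 3. Myl2, the slow regulatory light chain, was at 982, 585, 192 and 844 TPM, 0.24 times the mean of the other libraries in replicate 3. Myh7 was at 125, 98.1, 35.1 and 155 TPM. Tnnc1, slow troponin C, was at 477, 317, 120 and 321 TPM. The same library was lowest for Tnnt1 (slow troponin T) at 588, 351, 197 and 423 TPM and for Tnni1 (slow troponin I) at 134, 110, 49.8 and 111 TPM. Tpm3, slow tropomyosin, was at 380, 252, 98.6 and 326 TPM. Atp2a2, the slow calcium pump, was at 135, 102, 74.8 and 179 TPM. Tnni1, Tpm3 and Atp2a2 were picked out after their values were seen. Of the 13 members, 3 were instead highest in replicate 3: Sln, Casq2 (the calsequestrin of slow and cardiac muscle) and Myl3, the slow essential light chain, at 421, 315, 562 and 453 TPM. The 13 slow fibre genes summed to 3686, 2466, 1778 and 3263 TPM, 0.28% of TPM. Their median CV was 41.6%, and 24.2% without replicate 3. The ratio of fast to slow troponin C (Tnnc2 to Tnnc1) was 59.6, 90.9, 208 and 77.2.

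**Figure D3:**
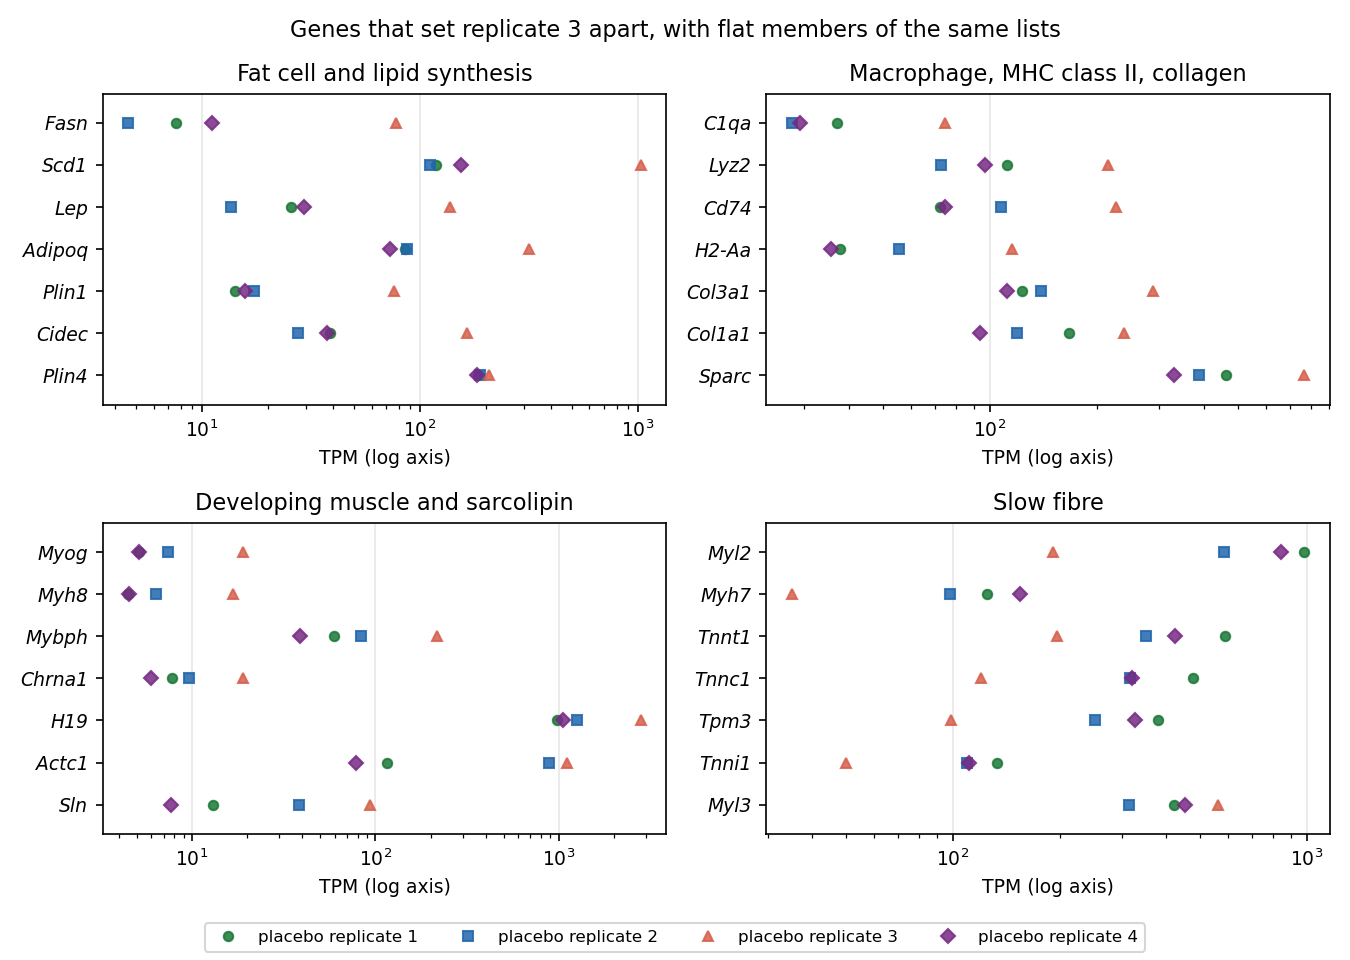
TPM (log axis) in each placebo library for 7 genes in each of 4 panels: fat cell and lipid synthesis genes, macrophage, MHC class II and collagen genes, developing muscle genes with sarcolipin, and slow fibre genes. The genes shown are a selection, some picked after their values were seen. Cfd, Pck1, Myh3 and Myf6, which had other orders, are not shown. Red triangles (replicate 3) lie to the right in the first 3 panels, with Plin4 nearly flat, and to the left in the slow fibre panel except for Myl3. Actc1 and Sln also have replicate 2 on the right.

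These groups shared 1 library, so they are not separate observations: replicate 3 was high for most fat cell, macrophage, class II and collagen genes that passed, and it had the lowest slow fibre sum. Its fast fibre sum was 0.94 times the mean of the others and its oxidative phosphorylation sum 0.99 times. The place and size of the tissue piece taken are not given in the labels, and the part of tissue composition in these differences was not tested.

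Replicate 1 was the highest library for many nerve and vessel genes. Mbp, a protein of myelin, was at 66.1, 36.3, 19.8 and 27.0 TPM. The 12 Schwann cell markers summed to 362, 188, 180 and 162 TPM. Only 5 of them passed both minimums, and 4 of these were highest in replicate 1, against 22.2% of all 8496 genes. Tagln and Acta2, of smooth muscle, were at 152, 57.0, 38.7 and 76.5 TPM and at 141, 58.8, 49.2 and 74.7 TPM. Rgs5, of the same list, varied less, at 348, 296, 300 and 310 TPM. Of the 13 smooth muscle and pericyte genes that passed, 8 were highest in replicate 1, against 22.2% of all 8496 genes. The list sum was 3402, 3118, 3218 and 3305 TPM (CV 3.7%), most of it from Des, which muscle fibres also express. Endothelial markers summed to 1051, 833, 836 and 803 TPM, with 14 of 19 highest in replicate 1, against 22.2% of all 8496 genes. Pecam1, an adhesion molecule of endothelium, was at 108, 83.3, 84.8 and 82.0 TPM, whereas Cdh5, VE-cadherin, lay at 100, 96.0, 104 and 81.1 TPM.

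Ribosomal protein genes were highest in the same library. Rplp1, of the ribosomal stalk, was at 1394, 1203, 946 and 1139 TPM, and 41 of 42 ribosomal protein genes were highest in replicate 1, against 22.2% of all 8496 genes. The differences were small, with sums of 23118, 20370, 18241 and 19240 TPM. Transcript length moved with this. The median effective length, the length over which a read can start, was 560 bases for the ribosomal genes and 2522 bases for all 8496. Replicate 1 was the highest library for 71.3% of the 237 genes under 500 bases and for 10.3% of the 2024 genes of at least 4000 bases. Replicate 4 was highest for 3.0% and 58.6%. The median log2 ratio of replicate 1 to the mean of the 4 libraries, with 1 TPM added, went from 0.14 for the shortest class to -0.12 for the longest, and that of replicate 4 from -0.09 to 0.13. The endothelial genes had a median of 3263 bases, with a range of 601 to 11732. Rgcc and Gpihbp1, the endothelial genes of highest level, had 734 and 601 bases. The part of transcript length in the ribosomal and endothelial values was not tested.

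**Figure D4:**
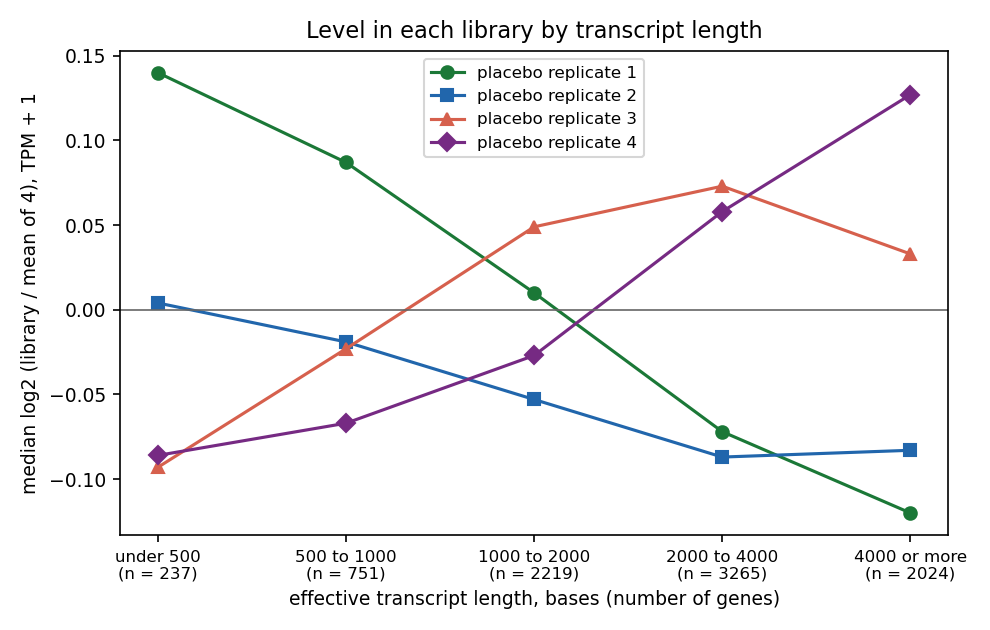
Median log2 ratio of each placebo library to the mean of the 4 (TPM + 1) for genes in 5 classes of effective length, in bases, with the number of genes under each class. The line of replicate 1 goes down with length from 0.14 to -0.12 and that of replicate 4 up from -0.09 to 0.13.

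A small set of signalling genes was high in replicates 3 and 4. Replicates 3 and 4 were both at least 2-fold above replicates 1 and 2 for 5 genes, 0.059% of the 8496. These were Nr4a3, Cish, Irs2, Ddah1 and the beta globin Hbb-b1, whose separate value is uncertain. The same rule gave 7 genes for replicates 2 and 3. Nr4a3, a nuclear receptor gene that exercise and adrenergic signals induce in muscle, was at 13.5, 8.24, 70.8 and 65.8 TPM. Cish, a feedback inhibitor of cytokine and growth hormone signalling, was at 2.90, 2.64, 13.0 and 25.1 TPM. Irs2, an adaptor of the insulin receptor, was at 3.52, 4.14, 17.0 and 22.4 TPM. In each, replicates 3 and 4 lay above replicates 1 and 2 without overlap. Thbs1, an inhibitor of vessel growth, was at 10.6, 5.34, 14.5 and 21.3 TPM. Nr4a2 and Junb, both early response genes and picked out after their values were seen, were highest in replicate 4 at 3.45, 3.29, 5.70 and 12.7 TPM and at 19.7, 22.4, 27.6 and 60.5 TPM. Numbers in the sample titles fall into a lower run with replicates 1 and 2 and an upper run with replicates 3 and 4, a grouping that the labels leave without a meaning.

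Of the insulin and leptin signalling genes, Slc2a4, the insulin-responsive glucose transporter, was steady at 339, 317, 317 and 367 TPM. Adipor1, an adiponectin receptor, was at 207, 195, 187 and 233 TPM. Igf1, a growth factor gene picked out after its values were seen, was at 5.59, 4.43, 13.0 and 4.93 TPM.

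Genes of nitric oxide and cGMP signalling were a small share of the RNA. The list covers the nitric oxide pathway, the target of the drug studied in the other libraries of the series. It also holds natriuretic peptide receptors such as Npr2 and Npr3. The members of highest level were Ostn, a secreted ligand of the clearance receptor (51.2 ± 14.3 TPM, SD, n = 4), Npr2, a receptor that makes cGMP (37.1 ± 2.42), Pde2a, which degrades it (34.1 ± 3.83), and Vasp, an actin regulator that the cGMP kinase phosphorylates (28.7 ± 2.63). Gucy1a1 and Gucy1b1 encode the subunits of soluble guanylate cyclase, which makes cGMP when nitric oxide binds. Gucy1a1 was at 8.74, 6.57, 5.48 and 5.44 TPM and Gucy1b1 at 7.24, 7.28, 5.76 and 5.48 TPM. Nos3, the nitric oxide synthase of endothelium, was at 11.1, 9.23, 10.7 and 12.8 TPM. Prkg1, the protein kinase activated by cGMP, was at 12.0, 11.6, 15.1 and 19.2 TPM, and Pde5a, which degrades cGMP, at 2.37, 1.47, 1.27 and 1.43 TPM. Npr3, a clearance receptor for natriuretic peptides, had the widest spread of the list, at 11.1, 8.89, 33.3 and 11.9 TPM. The 20 genes summed to 283, 243, 271 and 294 TPM, 0.027% of all TPM.

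Vessel growth and oxygen response genes had median CVs of 13.3% (23 genes) and 14.3% (17 genes), somewhat above the 11.64% of all 8496 genes. Vegfa, the main growth factor of blood vessels, was at 247, 244, 291 and 240 TPM, highest in replicate 3. Vegfb was at 299.8, 297, 288 and 275 TPM, and Kdr, the main receptor of Vegfa, at 21.1, 22.0, 18.9 and 20.7 TPM. The sum of the 29 angiogenic ligands and receptors had a CV of 4.7%, while Thbs1, described above, had the highest CV of its members, 51.87%. Of the oxygen response list, Epas1, which encodes an oxygen-labile transcription factor, was at 139, 118, 143 and 136 TPM, and Egln1, which marks such factors for decay, at 194, 205, 209 and 254 TPM. Ddit4, a stress inhibitor of mTOR, was at 241, 283, 264 and 292 TPM. Hmox1, which degrades heme, had the highest CV of the oxygen response list (37.98%) at 15.2, 7.63, 21 and 14 TPM.

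Atrophy genes were present at moderate levels. Trim63, a ubiquitin ligase of wasting muscle, was at 292, 267, 430 and 359 TPM, and Fbxo32, its partner in such programmes, at 114, 76.9, 81.2 and 115 TPM. Gadd45a, which denervation induces, was at 36.8, 68.5, 52.6 and 27.6 TPM.

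**Figure D5:**
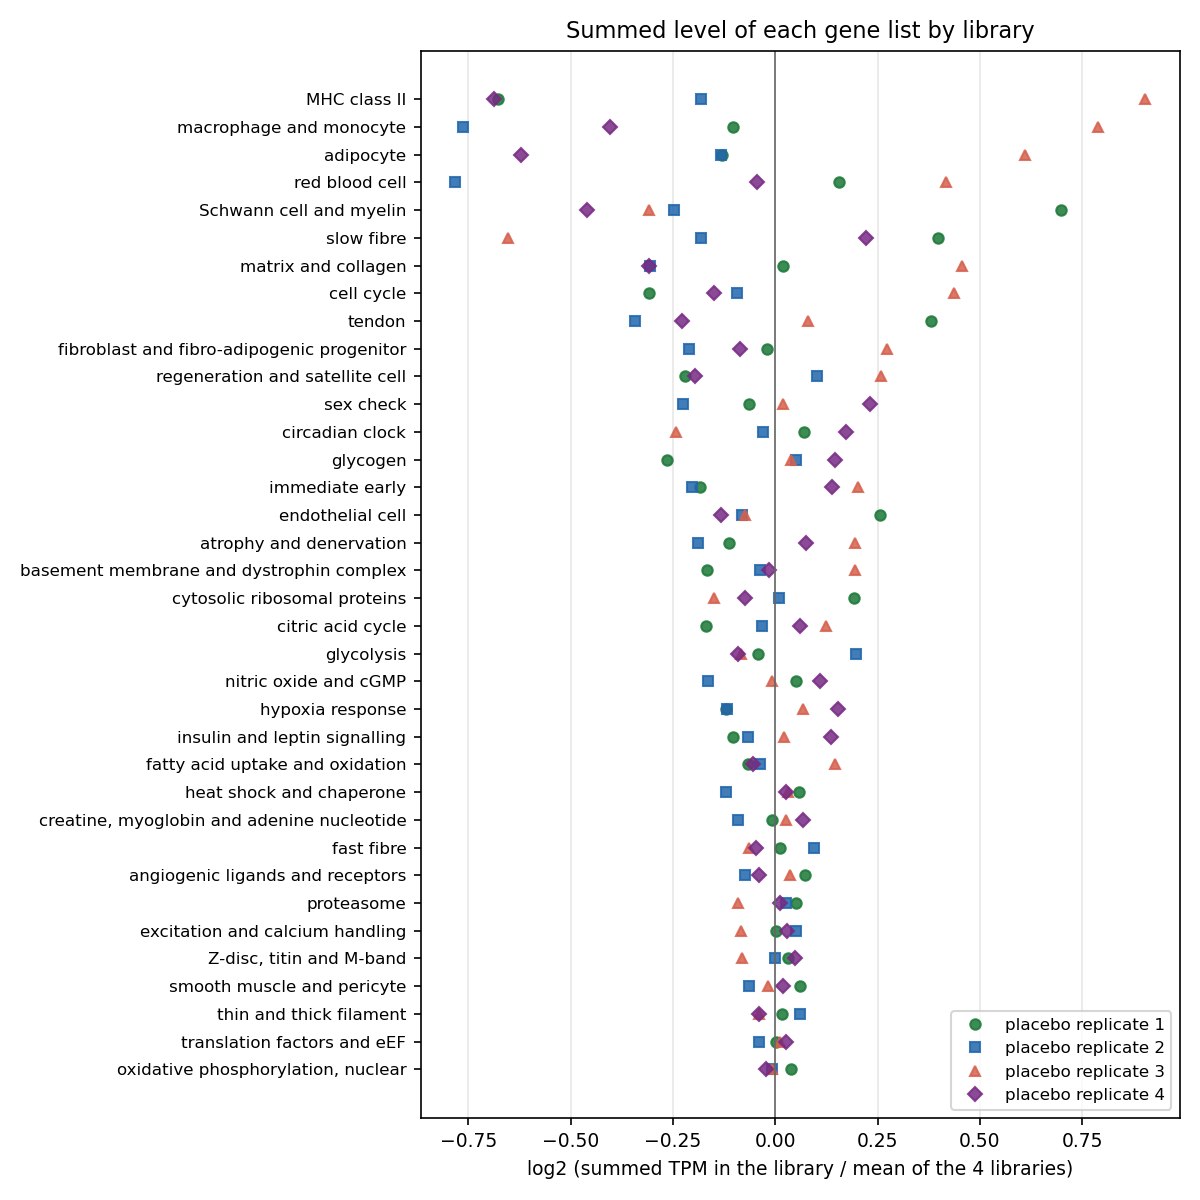
Summed TPM of each gene list in each placebo library as log2 of its ratio to the mean of the 4 libraries, for lists with a mean sum of at least 100 TPM, ordered by their range. Oxidative phosphorylation, at the bottom, spans least; in the MHC class II, macrophage and adipocyte lists at the top replicate 3 lies to the right, and in the slow fibre list to the left.

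Some wide spreads were absent once related genes were summed. Eif3j1, among the 15 genes of highest CV, was at 0.00, 14.6, 16.2 and 0.01 TPM. Its near-identical relative Eif3j2 was at 50.8, 30.6, 32.0 and 56.8 TPM. Their sum, a translation initiation factor subunit, was 50.8, 45.2, 48.2 and 56.8 TPM, with a CV of 9.8% in place of 115.7%. Cers1 and Gdf1 lie in the same interval, chr8:70315775-70331592. Cers1 was at 7.26, 11.3, 11.4 and 0.00 TPM, whereas the sum of both was 11.2, 12.9, 12.8 and 10.7 TPM (CV 9.5%). Both sums had a CV below the median of all 8496 genes. Eif3j2, Cers1 and Gdf1 were picked out after their values were seen. The sources used here do not give how strand was handled in counting. Values of genes that overlap an antisense partner are therefore uncertain too.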

How the data were processed

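Per the labels' protocols, frozen muscle was homogenised, its RNA isolated with Tri Reagent, and sequencing libraries built with KAPA's stranded mRNA kit. Tools named in the submitters' processing notes are FastQC and Trimmomatic for the reads, STAR 2.5.3a, and RSEM 1.2.28, with mm10 as the build. The deposited data are a gene table for each library, keyed by 24848 symbols. Expected counts in it are RSEM's estimates of reads per gene, per the file headers, of which 0.773% to 0.837% per library were not whole (tolerance 0.001). TPM, per the file headers, are RSEM's levels scaled by length. The deposited effective length (unit: bases) served to class genes by length. Deposited FPKM were not used.

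Levels are deposited TPM, averaged over the 4 placebo libraries with SD and CV (python 3.11.15, pandas 2.3.3). Spread per gene was taken for genes with a mean of at least 5 TPM and 100 expected counts. Rounded expected counts gave the biological coefficient of variation with edgeR 4.0.16 under R 4.3.3, using TMM scaling, filterByExpr and an intercept, a step tested on simulated counts. No groups were compared and no p-value was computed. Intervals and floors cover counting error only.

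The members, 40 gene lists and tests were chosen with earlier results of these data known. Genes named are the 30 of highest mean TPM, in each list up to 4 of highest TPM, the member of highest CV and members with 0 counts, the 15 of highest and of lowest CV (passing over Gm, LOC and Rik symbols and small RNAs), and a fixed set of fibre, vessel and sex genes. Most others are marked as picked after their values were seen, or come from the patterns of libraries at least 2-fold apart. Coordinates and promoters are RefSeq's on GRCm38.p6. Promoter entries were found for 18040 genes, and Tnnt3 and Tnni2 were passed over for lack of one. Alternatives were other scalings (DESeq2 1.42.0 size factors, upper quartile, none), CPM, other minimums and thresholds, and each library left out.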

Additional observations from a re-analysis of the deposited data

Results flagged for a closer look

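A library was marked when its gap to the nearest of the other 3, divided by the whole range of the 4 values, exceeded Dixon's 95% critical value for 4 samples. Chance marks about 1 in 20 groups of 4 that were not chosen by their values. That rate does not apply here, since the 292 values examined include genes named for a high CV or after their values were seen. Marked were 41, 33 of them because replicate 3 was high, which describes these genes and supports nothing further.

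Lipid and fat cell genes with replicate 3 far above the rest had gap ratios of 0.910 for Fasn, 0.953 for Scd1, 0.906 for Slc25a1, 0.852 for Acly, 0.931 for Acaca and 0.894 for Elovl6. The ratios were 0.872 for Lep, 0.941 for Adipoq, 0.949 for Plin1, 0.919 for Cidec and 0.876 for Pparg. Of the other genes of highest CV, it was 0.964 for Cdo1 (119 TPM against 20.9 to 24.4), 0.984 for Ptger3 (15.7 against 2.5 to 2.71), 0.877 for Mrap and 0.913 for Orm1. The summed level of the fatty acid uptake and oxidation list was marked at 0.866. That list includes Fabp4, which is also on the fat cell list. Fabp4 had the highest CV of its members, at 2867 TPM in replicate 3 against 1285 to 1955. The gap ratio without Fabp4 was not examined.

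Immune and matrix genes high in replicate 3 were C1qb (0.848, 70.8 TPM against 24.7 to 31.7), C1qc (0.837), H2-Ab1 (0.851), Col3a1 (0.845) and Col15a1 (0.833, a collagen of basement membrane zones). Developing muscle and growth genes high in it were Myog (0.839), Myh8 (0.850), H19 (0.843), Igf1 (0.864), Npr3 (0.878) and Vegfa (0.861, 291 TPM against 240 to 247). Tpm1, a tropomyosin of fast fibres, was low in replicate 3 (0.861, 17990 TPM against 19304 to 19517), a difference small beside its level.

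Near the detection floor, replicate 3 was marked for Cd4 (0.891), Csf3r (0.973), Jchain (0.901), Krt15 (1.0), Xist (0.900) and the summed B and plasma cell list (0.841). Replicate 4 was low for Cd79a (0.880). None of these 6 genes exceeded 2.68 TPM, and Cd79a was at 0.31 TPM or less.

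Replicate 1 was high for the endothelial list (0.867), for Pecam1 (0.890) and for the Schwann cell and myelin list (0.872). Replicate 2 was high for the glycolysis list (0.841) and for Sgca, alpha-sarcoglycan of the dystrophin complex (0.886, 235 TPM against 201 to 204). It was low for Hba-a2, an alpha globin (0.887, 43.3 TPM against 107 to 115).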

How the results depend on the processing

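No paired analysis was possible because the description covers a single group and the labels give no replicate numbers. Of 51 alternative values of the 6 main quantities, 6 moved. Without length scaling the shares of the 10 and 100 most abundant genes were 21.7% and 44.6% of counts, against 26.81% and 51.52% of TPM, with other genes in the lead. The number of genes with a CV above 50%, 142, became 39 with a minimum of 1000 counts (3678 genes), 242 at a threshold of 40% and 41 at 75%. Leaving out 1 library at a time gave 54 to 171 such genes, the lowest without replicate 3. The biological coefficient of variation stayed at 15.57% to 19.44%, the median CV at 10.18% to 11.88% and the number of genes at 1 TPM in every library at 11464 to 11534 when a library was left out. Dividing TPM by TMM factors moved the CV of 28 of 222 named genes by more than 1.5 times, and leaving out replicate 3 that of 64. A mean of 4 cannot move by 1 SD when 1 library is dropped, so the 249 gene levels that kept their value in this sense show nothing about stability. The count of 0 in Mpo, Elane and Krt1 limits each to 3 counts per library. Genes near that floor, such as the T and B cell markers, cannot be ranked at this depth, and an SD from 4 libraries has a 95% interval of 0.566 to 3.73 times its value.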

Other observations

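Abundant long non-coding RNAs other than H19 included Neat1 and Malat1. Neat1, the scaffold of paraspeckles, was at 1800, 747, 1042 and 1237 TPM (CV 36.78%), and Malat1, of nuclear speckles, at 511, 355, 478 and 353 TPM; both were picked out after their values were seen. Of the clock genes, Nr1d1, a repressor of the core clock, was at 88.6, 78.2, 71.6 and 92.9 TPM. Ciart, another clock repressor, was at 17.4, 8.96, 8.95 and 20 TPM, with replicates 1 and 4 above replicates 2 and 3. The time of day of collection is not given in the labels.

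Translation and protein folding genes were abundant. Eef1a2, the elongation factor isoform of mature muscle, was 3.41-fold ± 0.71 (SD, n = 4) above Eef1a1, the isoform of most other cells. Cryab, a small heat shock protein that protects desmin, was at 2475, 1795, 1929 and 1953 TPM, and Hspb6, of the same family, at 2423, 2177, 2162 and 2066 TPM. Tendon markers were present, with Fmod, fibromodulin, at 113, 77.3, 107 and 75.0 TPM and Tnmd, tenomodulin, at 38.8, 19.1, 27.2 and 16.4 TPM. In both genes replicates 1 and 3 lay above replicates 2 and 4.

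Further genes stood at least 2-fold apart in patterns of their own and were chosen after their values were seen. Myl10, a myosin light chain, was at 43.7, 16.4, 11.2 and 21.6 TPM, highest in replicate 1. Slc15a2, a peptide transporter, was at 11, 23.4, 3.18 and 3.13 TPM, highest in replicate 2. Lars2, the mitochondrial leucyl-tRNA synthetase, was at 87.1, 76.6, 97.6 and 204 TPM, and Ppp1r12b, a myosin phosphatase subunit, at 5.62, 15.5, 17.7 and 41.3 TPM, both highest in replicate 4. Retnla, a marker of alternatively activated macrophages, was at 73.9, 24.8, 62.7 and 53.0 TPM, lowest in replicate 2.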
